A study of Mus musculus with 6 samples.

Results

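The cytosolic ribosomal proteins are the proteins of the large and small subunits of the ribosome that translates nuclear mRNAs. Members were all genes whose mouse symbol was Rpl or Rps followed by a number, with Rplp0, Rplp1, Rplp2 and Rpsa added and the Rps6k kinases and Rps19bp1 left out. This rule took 105 of 21966 genes in the expression table. Their mRNA levels were compared between 2 conditions in primary cell lines from colonic tumors of mice. PID+ cells carried ROSA26-PID together with CDX2P-NLS-Cre and APC^Δ/+ and express PID, an inhibitory domain that blocks the group I p21-activated kinases, once Cre has removed a stop cassette. PID- cells (CDX2P-NLS-Cre;APC^Δ/+) carry the same Cre and Apc alleles and no PID allele, although their labels read normal and untreated. Cre under this promoter acts in the gut lining, chiefly that of the colon. RNA of 3 samples per condition was sequenced, labelled 1, 2 and 3 for PID- and 4, 7 and 26 for PID+. The PID- numbers do not match the line numbers in the published figures, and treated rows were taken as PID+ from the labels. The study's methods call the read sets of a condition repeated sequencing runs and merge them before quantification, so the table holds 1 pooled value per gene and condition and differences have no replicate check.

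Ribosomal proteins are needed in equal numbers, since each ribosome carries most of them once, and their mRNAs are among the most abundant of a growing cell. Many of these mRNAs begin with a run of pyrimidines, the 5' terminal oligopyrimidine tract, through which mTOR signaling sets their translation. In intestinal tumors that have lost Apc, Wnt signaling and Myc drive ribosome production. Most mammalian ribosomal protein genes also have processed copies scattered over other chromosomes.

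Of the 105 members, 77 were the main genes of the subunits, 46 of the large and 31 of the small subunit, and 28 were paralogs or copies with related symbols. All were quantified with status OK in both conditions. Levels are given as FPKM, a fragment count scaled to transcript length and sequencing depth, with the interval deposited beside each value. Among the 77 main genes FPKM ran from 322 to 1762 in PID+ cells and from 387 to 2085 in PID- cells, against medians of 27.0 and 27.2 over 7423 expressed genes, those averaging 10 FPKM or more. Every main gene was therefore far above the typical expressed gene in both conditions. Members made up 53 of the 100 genes with the highest mean FPKM. The order of the main genes was similar in the conditions, with a Pearson correlation of log2 FPKM of 0.84 across 77 genes, which are not independent replicates. An estimate from low values, which fell on steps of whole reads, put the main gene with the fewest reads at 14171 in PID+ cells. That number is approximate and no lower bound, since it takes the longest transcript of each gene, which overstates reads where shorter ones are expressed, and any scaling of libraries would change it. The deposited intervals were wide, reaching a median of 56.5% of the value to each side in PID+ cells and 56.3% in PID- cells.

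Rplp1, a protein of the acidic stalk, had the highest mean level, with an FPKM of 1762 (789 to 2735) in PID+ cells and 2085 (939 to 3232) in PID- cells. Next came Rps12 of the small subunit, with 1478 (668 to 2288) in PID+ cells and 1805 (817 to 2794) in PID- cells. Both were higher in PID- cells by less than 1.5-fold, and their intervals overlapped. Rps24 and Rpl32 stood at the same high level with the larger value in PID+ cells. For Rps24 the FPKM was 1743 (720 to 2766) in PID+ cells and 1441 (604 to 2278) in PID- cells. For Rpl32 it was 1573 (711 to 2434) against 1282 (582 to 1982). The remaining genes of the 8 most abundant, Rpl10, Rpl41, Rpl26 and Rps2, had FPKM of at least 1153 in PID+ cells. At the other end, the lowest of the main genes in PID+ cells was Rpl22, an RNA-binding protein of the large subunit.

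As a group the members had a median difference near 0 on the deposited scale. Each difference is the log2 ratio of PID+ over PID-, with 1 added to every FPKM, and a positive one means a higher level in PID+ cells. The median was 0.00 over 105 members and 0.03 over the 77 main genes, beside 0.00 over 21959 genes and 0.01 over the 7423 expressed genes. Over 147 other genes with a mean FPKM of 300 to 3000 it was 0.14, with 94 higher and 53 lower in PID+ cells. Among the 105 members 50 were higher, 49 were lower and 6 were listed at 0 in both conditions, which gives a difference of 0. Of the main genes 41 were higher and 36 lower in PID+ cells. The median of the 105 members depended on the scale chosen for the conditions. It was -0.55 when Gapdh was set equal, a scaling that also moved the median of the 7423 genes to -0.59. The summed FPKM of members was 73419 in PID+ cells and 74733 in PID- cells, or 12.5% and 13.7% of all FPKM. That smaller share went with a larger total FPKM in PID+ cells, 585870 against 545310. When 39 other genes with a mean FPKM over 1000 were left out of the total, the shares were 16.4% and 16.9%.

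At least 1.5-fold differences were found for 7 of 105 members, all of them among the 92 members counted as expressed, or 7.61% of those. The same call took 25.1% of the 7423 expressed genes, and 26.5% of 147 other genes with a mean FPKM of 300 to 3000. On the deposited scale, members past 1.5-fold were therefore fewer than in either background. In direction, 1 member was higher in PID+ cells, beside 12.6% of the 7423 genes, and 6 were lower, beside 12.4%. These counts were 0 and 48 with Gapdh set equal and 0 and 10 with a fitted trend on abundance, GC content and length removed, and the backgrounds were not recounted on those scales. No member reached 3-fold, a size passed by 3.22% of the 7423 genes, and no member had intervals that stood apart, beside 1.2%. The standard deviation of the differences was 0.31 over the 77 main genes and 0.85 over the 147 other abundant genes.

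The ribosomal stalk, a flexible arm of the large subunit that recruits translation factors, is built from Rplp0 and the acidic proteins Rplp1 and Rplp2. Rplp0, the base of the stalk, had an FPKM of 1206 (476 to 1936) in PID+ cells and 731 (320 to 1143) in PID- cells, a ratio of 1.65 and a log2 difference of 0.72. It was the only member at least 1.5-fold higher, and its difference fell to 0.57 when a fitted trend on abundance, GC content and length was removed and to 0.10 with Gapdh set equal. The intervals of Rplp0 overlapped, from 476 to 1143. Rplp2 had 816 (297 to 1336) in PID+ cells and 660 (239 to 1081) in PID- cells, a log2 difference of 0.31. Rplp1, the partner of Rplp2 in the stalk dimers, had a log2 difference of -0.24. The 3 stalk genes thus had differences of both signs.

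**Figure D1:**
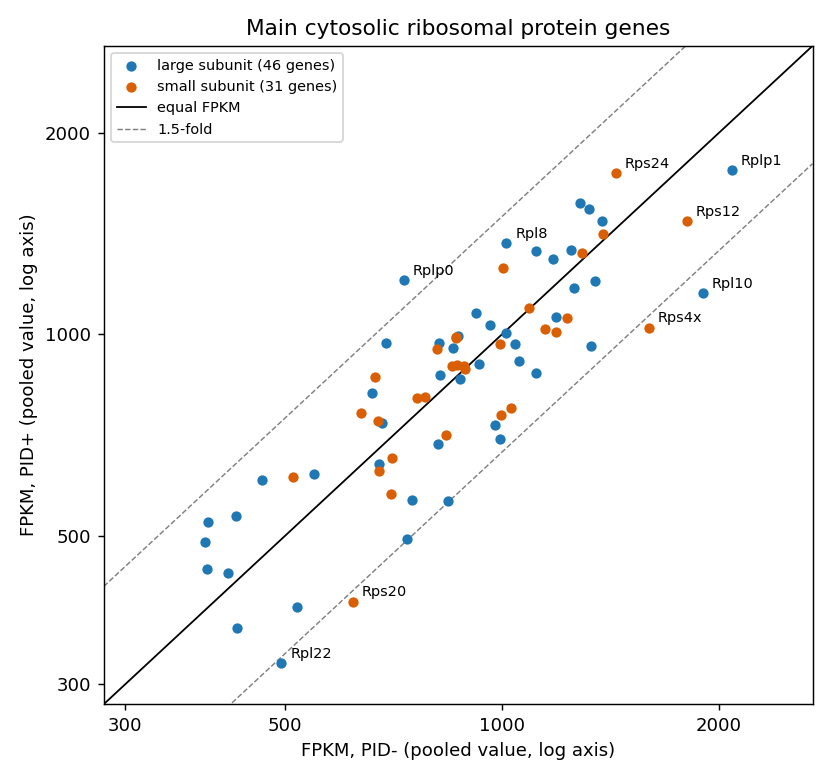
Pooled FPKM of the 77 main ribosomal protein genes in PID- cells (x, log axis) and PID+ cells (y, log axis), 1 point per gene, blue for the large and orange for the small subunit; the solid line marks equal FPKM and the dashed lines a 1.5-fold difference. Rplp0 lies above the upper dashed line at 1206 against 731, and Rpl10, Rps4x, Rps20 and Rpl22 lie below the lower one.

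In the large subunit the median difference was 0.08 over 46 main genes, with 24 higher and 22 lower in PID+ cells. Rpl10, which completes the peptidyl transferase center late in assembly, had an FPKM of 1153 (502 to 1804) in PID+ cells and 1903 (798 to 3008) in PID- cells, a ratio of 0.606 and a log2 difference of -0.72. The gene lies at chrX:74270812-74273135 on the plus strand (GRCm38), and 57.2% of the 50-base stretches of its longest transcript also occur in transcripts of other genes. Rpl22 had 322 (126 to 518) in PID+ cells and 494 (186 to 802) in PID- cells, a log2 difference of -0.61, and shares only 5.19% of its stretches. These were the main large subunit genes at least 1.5-fold lower. Rpl24 and Rpl35a lay just inside that limit, at -0.58 each. On the positive side, Rpl18 followed Rplp0 with 970 (395 to 1544) in PID+ cells and 691 (273 to 1109) in PID- cells, a log2 difference of 0.49. Rpl8, a protein near the peptidyl transferase center, had 1369 (596 to 2142) and 1014 (452 to 1577), a difference of 0.43. Rpl29 had a difference of 0.42 with 525 (237 to 813) and 391 (169 to 613). None of these reached 1.5-fold.

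Rpl5 and Rpl11, which with 5S rRNA form the particle that binds Mdm2 when ribosome assembly is disturbed, had smaller differences. Rpl5 had an FPKM of 967 (314 to 1620) in PID+ cells and 1043 (218 to 1869) in PID- cells, a log2 difference of -0.11. Rpl11 had 364 (146 to 583) and 429 (188 to 669), a difference of -0.23. Rpl3, a core protein next to the peptidyl transferase center, was lower in PID+ cells by less than 1.5-fold, with 877 (360 to 1394) against 1116 (456 to 1776), a difference of -0.35.

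In the small subunit the median was 0.02 over 31 main genes, with 17 higher and 14 lower in PID+ cells. Rps4x, the X-linked form of Rps4, had an FPKM of 1023 (449 to 1597) in PID+ cells and 1600 (665 to 2535) in PID- cells, a log2 difference of -0.64. Rps20, a protein of the head of the subunit, had 398 (115 to 682) in PID+ cells and 621 (210 to 1032) in PID- cells, also -0.64. Those were the small subunit genes past 1.5-fold, and none was that much higher. Rps6, the substrate of the S6 kinases, had 776 (347 to 1205) in PID+ cells and 1030 (456 to 1603) in PID- cells, a difference of -0.41. Rps3, which lies at the mRNA entry channel, had a difference of 0.26, with 612 (230 to 994) against 513 (186 to 839). Close to 0 were Rps19, whose human counterpart is mutated in Diamond-Blackfan anemia, at 0.07, Rpsa, the laminin receptor protein, at 0.05, and Rps27a, made as a fusion with ubiquitin, at 0.01. The medians of the subunits differed by 0.07 over main genes, and in all 105 members by less than 0.01. On the deposited scale neither subunit thus stood apart in its difference. The large less the small subunit median was 0.10 with Gapdh set equal and 0.12 with the fitted trend removed. It was -0.31 over the 12 main genes with under 10% of their 50-base stretches in another gene.

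The differences of most main genes followed the chromosomes on which they lie. For each chromosome a reference was taken as the median difference of its non-member genes averaging 5 FPKM or more. Across the 77 main genes, the difference and the median of the gene's own chromosome had a Pearson correlation of 0.79 and a Spearman correlation of 0.77. This is a description over genes of 1 pooled value per condition, and genes of a chromosome share its median. The standard deviation of the differences was 0.31 before and 0.19 after the chromosome median was subtracted, and 59 of 77 main genes lay within 0.2 of it. Over the 19 chromosomes with a main gene, the median of the main genes and that of the other genes had a Pearson correlation of 0.94. Among the 147 other genes with a mean FPKM of 300 to 3000, whose own differences spread more widely, the correlation with the chromosome median was 0.24. The copy number of chromosomes in these cells was not tested.

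**Figure D2:**
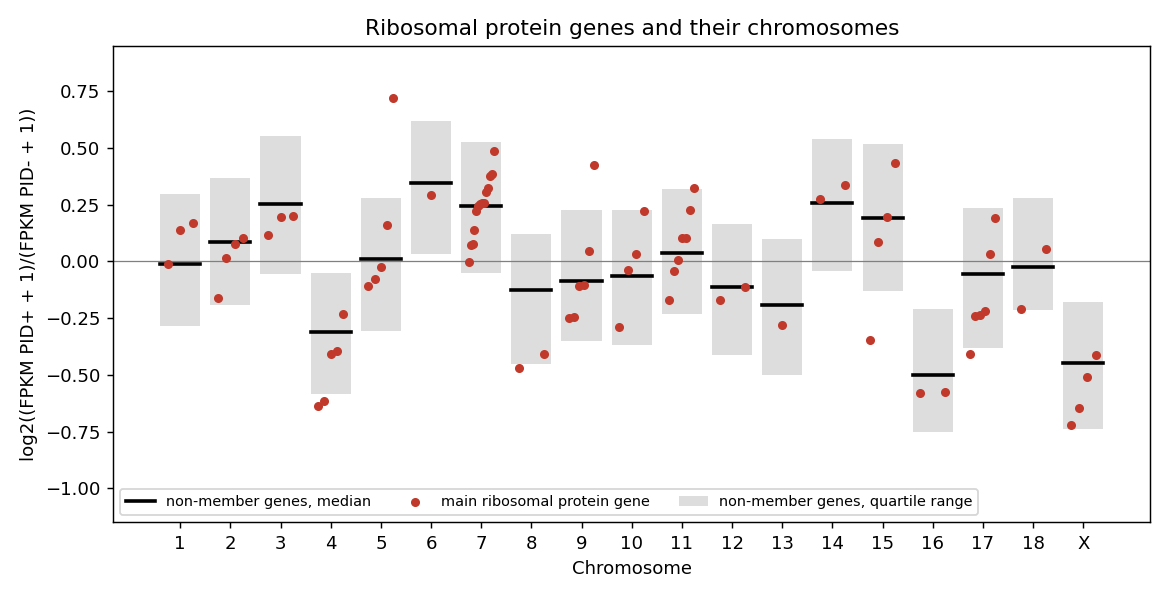
Log2 differences by chromosome: each red point is 1 of the 77 main ribosomal protein genes, the black line is the median of the other genes of that chromosome averaging 5 FPKM or more, and the grey box spans their lower to upper quartile. Points sit low on chromosomes 4, 16 and X and high on 3, 6, 7 and 14, as the black lines do, while the points on chromosome 8 lie well below their line and Rplp0 on chromosome 5 lies above its box.

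Chromosomes 4, 16 and X had the lowest medians among chromosomes with a main gene, and chromosomes 3, 6, 7 and 14 the highest; these groups were chosen after their values were seen. On chromosomes 4, 16 and X, 11 of 11 main genes were lower in PID+ cells, with a median of -0.58, and 82.7% of 823 other expressed genes were lower as well. On chromosomes 3, 6, 7 and 14, 19 of 20 main genes were higher, with a median of 0.26, and 75.3% of 1414 other expressed genes were higher as well. The 46 main genes of the remaining chromosomes were 22 higher and 24 lower, with a median of -0.02. Among these, chromosomes 8 and 17, also singled out after their values were seen, departed most from their other genes: the 2 main genes of chromosome 8 had a median of -0.44 beside -0.12, and the 6 of chromosome 17 had -0.23 beside -0.06. Summed FPKM of the main genes on chromosomes 4, 16 and X was 7285 in PID+ cells and 10628 in PID- cells, while on 3, 6, 7 and 14 it was 18997 against 16077. With Gapdh set equal, a shift of -0.63 on the log2 scale, the main genes of both groups would lie below 0. None of the higher group exceeded 0.49. Gapdh itself lies on chromosome 6 of the higher group, with a difference of 0.62, so this scale is not independent of the chromosome groups.

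Chromosome 16 carries 2 main genes. Rpl35a, at chr16:33056453-33060189 on the plus strand, had an FPKM of 564 (248 to 881) in PID+ cells and 842 (378 to 1306) in PID- cells. Rpl24, at chr16:55966275-55971435 on the plus strand, had 494 (223 to 766) and 739 (338 to 1139). Both had a difference of -0.58, next to a median of -0.50 over 275 other genes of the chromosome. On the X chromosome all 4 main genes were lower in PID+ cells, where the other 282 genes had a median of -0.45. Beside Rpl10 and Rps4x these were Rpl39, with 698 (320 to 1076) against 995 (447 to 1543), and Rpl36a, with 733 (333 to 1133) against 977 (441 to 1514). Their differences were -0.51 and -0.41. Chromosome 4 holds 5 main genes with a median of -0.41, among them Rps6, Rpl11, Rpl22 and Rps20, and its 555 other genes had a median of -0.31.

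Chromosome 7 holds 14 of the 77 main genes, more than any other chromosome. Of these 13 had the larger value in PID+ cells, with a median of 0.26 over all 14, and the other 632 genes of the chromosome had a median of 0.24. Its members ranged up to 0.49 and included Rpl18, Rps3, Rps19, Rplp2 and Rpl27a. Rpl27a had an FPKM of 607 (256 to 957) in PID+ cells and 465 (174 to 755) in PID- cells, a difference of 0.38. On chromosome 6, Rpl32 was the only main gene, at 0.29 beside a median of 0.34 over 412 other genes. Chromosome 14 carries Rps24 and Rpl15. Rpl15 had 489 (168 to 810) in PID+ cells and 387 (137 to 637) in PID- cells, a difference of 0.34, and the chromosome's median was 0.26. Thus members of both subunits were found on each side according to chromosome.

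After the chromosome median was subtracted, 1 of the 77 main genes remained at least 1.5-fold away. This was Rplp0, at chr5:115559467-115563727 on the plus strand, with 0.71 left. The next largest distances were those of Rpl3 on chromosome 15, which was 0.54 below, and Rpl29 on chromosome 9, which was 0.51 above. Rpl10, Rps4x, Rps20 and Rpl22 were -0.27, -0.20, -0.33 and -0.30 from their chromosomes. Medians taken only over genes within 5 Mb, an alternative chosen after seeing the data, gave a correlation of 0.77 and left Rplp0 at 0.62, with the paralog Rps27l then also past 1.5-fold at 0.61.

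Some ribosomal proteins have paralogs with tissue-restricted or alternative use. Rpl22l1, the paralog of Rpl22, had an FPKM of 295 (122 to 468) in PID+ cells and 237 (89.6 to 385) in PID- cells, a log2 difference of 0.31. It reached 91.5% of the Rpl22 level in PID+ cells and 48.1% in PID- cells, since the pair moved in opposite directions. Rpl22l1 lies on chromosome 3, with a median of 0.26, and Rpl22 on chromosome 4, with a median of -0.31. No 50-base stretch of Rpl22l1 occurs in Rpl22. Rpl36al had 348 (147 to 548) in PID+ cells and 290 (120 to 460) in PID- cells, which was 47.4% and 29.6% of Rpl36a. Rps27l, a p53 target, had 513 (220 to 805) and 398 (170 to 626), a difference of 0.37, and was 51.8% and 46.1% of Rps27, which had 989 (437 to 1541) and 862 (377 to 1348). Rpl7l1 was at 3.11% and 3.2% of Rpl7, and its difference of 0.09 was close to the 0.14 of its parent. Rpl6l, annotated as a processed pseudogene with 61.8% of its 50-base stretches in Rpl6, was at -0.04 beside -0.03 for Rpl6. Also, 6 genes were listed at 0 in both conditions. By symbol these were the paralogs Rpl3l, Rpl10l, Rpl39l and Rps4l and the copies Rpl28-ps4 and Rpl36-ps4. By annotation Rps4l is a transcribed processed pseudogene and Rpl36-ps4 is protein coding.

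Of the copies named after a parent with the ending -ps or rt, 10 that were expressed lie on another chromosome than the parent, and 52.8% to 100% of their 50-base stretches are also found in it. Rpl10-ps3, on chromosome 9, had an FPKM of 249 (109 to 389) in PID+ cells and 437 (198 to 677) in PID- cells, a difference of -0.81. Its parent Rpl10 on the X chromosome was at -0.72, while the median of chromosome 9 was -0.09. Rpl13-ps3, on chromosome 14, was at -0.61 with 46.1 (8.44 to 83.7) and 70.9 (19.6 to 122), against a chromosome median of 0.26. Across the 10 copies the difference had a Pearson correlation of 0.99 with that of the parent and of -0.25 with the median of the copy's own chromosome. All lay within 0.14 of the parent, and 9 of 10 lay below it. Reads of a copy and of its parent cannot be told apart over shared stretches, so the values of these copies, which include 2 of the 7 members past 1.5-fold, are uncertain.

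**Figure D3:**
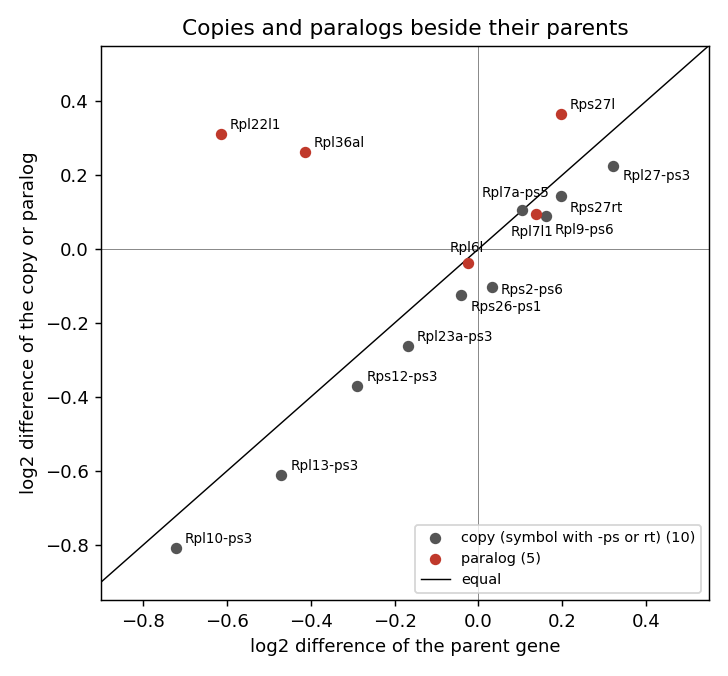
Log2 difference of each expressed copy or paralog (y) against that of its parent gene (x), with the line of equal values. Grey points are the 10 copies and red points the 5 paralogs, classed by symbol, of which Rpl6l is annotated as a processed pseudogene. Copies lie along the line down to Rpl10-ps3 at -0.81, whereas Rpl22l1 at 0.31 and Rpl36al at 0.26 lie far above it.

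Sharing of sequence also reached the main genes. A median of 32.9% of the 50-base stretches of a main gene occurred in a transcript of another annotated gene, mostly genes outside the table. For 12 main genes the share was under 10%, and over these the correlation with the chromosome median was 0.92. Between the start and end of 30 main genes lay 58 small nucleolar RNA genes on the same strand, with introns and exons not told apart. Hosts of these RNAs had a median difference of -0.03, and the 47 main genes without one had 0.05. Main transcripts were short, with a median longest transcript of 1094 bases against 3344 over the expressed genes.

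Sequence around the start was taken from RefSeq on GRCm38.p6, where 57 of the 77 main genes had an entry. In the window of 15 bases before to 15 bases after the annotated start, 23 of these 57 held a run of at least 8 bases made only of C and T on the sense strand, or 40.4%, beside 11.9% of 27025 genes. The letters CTTTCC stood in 8 of the 57 main windows and 1.39% of all windows, and CTCTTTC, which can overlap it, in 8.77% and 0.389%. GGAAGT, on either strand of the whole 300 bases, was in 50.9% of the main promoters, 24.1% of all promoters and 30.4% of promoters of expressed genes. Main genes with such a run had a median difference of 0.08 and the 34 without one had 0.00, so the run did not mark the direction. Windows are shown for 5 members with a long run and for 4 past 1.5-fold with a short one, chosen after their values were seen, and capitals mark the longest run of C and T in each window.
Rpl27a (chr7:109519180-109519209, plus strand): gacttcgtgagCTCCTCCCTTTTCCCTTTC
Rpl15 (chr14:18270972-18271001, minus strand): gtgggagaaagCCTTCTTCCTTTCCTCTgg
Rpl18 (chr7:45718056-45718085, plus strand): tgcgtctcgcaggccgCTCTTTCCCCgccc
Rplp2 (chr7:141447636-141447665, plus strand): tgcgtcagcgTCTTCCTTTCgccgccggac
Rps6 (chr4:86857353-86857382, minus strand): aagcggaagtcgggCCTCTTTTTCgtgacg
Rplp0 (chr5:115559452-115559481, plus strand): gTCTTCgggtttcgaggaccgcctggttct
Rpl10 (chrX:74270801-74270830, plus strand): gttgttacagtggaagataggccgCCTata
Rps4x (chrX:102189377-102189406, minus strand): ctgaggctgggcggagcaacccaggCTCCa
Rpl22 (chr4:152325711-152325740, plus strand): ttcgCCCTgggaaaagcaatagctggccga

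Factors that build ribosomes had higher medians than the ribosomal proteins themselves. Core and associated proteins of the small nucleolar ribonucleoproteins, which modify rRNA, had a median of 0.43 over 12 genes. Of these 11 had the larger value in PID+ cells and 4 passed 1.5-fold upward, beside 12.6% of the expressed genes. Nolc1, Naf1, Ruvbl1 and Ruvbl2 were counted as associated proteins, and Nolc1 and Ruvbl2 were among the 4. Nop56 had the largest difference, 0.80, with an FPKM of 235 (48.4 to 422) in PID+ cells and 135 (25.3 to 245) in PID- cells. The pseudouridine synthase Dkc1, on the X chromosome, was the lowest at -0.01. Small subunit assembly factors had a median of 0.25 over 46 genes, and of the 45 that were expressed 8 were at least 1.5-fold higher and 0 that much lower, beside 12.6% and 12.4% of the expressed genes. Utp20 had 24.7 (11.2 to 38.3) against 12.3 (5.19 to 19.4), a difference of 0.95, and Rcl1 was lowest at -0.48. Large subunit assembly factors had a median of 0.16 over 48 genes, and of the 47 that were expressed 6 were past 1.5-fold higher and 1 lower, beside 12.6% and 12.4%, so the count of higher genes was close to that background. Nop2, an rRNA methyltransferase, was highest at 0.85 and Las1l, an endonuclease subunit on the X chromosome, lowest at -0.65. Components of RNA polymerase I transcription had a median of 0.15 over 15 genes, from Taf1b at -0.66 to Cd3eap at 1.06. These medians stand beside 0.01 over the 7423 expressed genes, and less the chromosome medians they were 0.37, 0.25, 0.21 and 0.19. With Gapdh set equal, the median over expressed genes moved down to -0.59, and these lists were not recomputed on that scale.

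Translation factors were closer to the ribosomal proteins. Initiation factors had a median of -0.04 over 36 genes, with 0 at least 1.5-fold higher and 2 lower, beside 12.6% and 12.4% of the expressed genes. These were Eif4a2 on chromosome 16 at -0.72 and Eif2b3 on chromosome 4 at -0.59. Elongation and termination factors had a median of 0.00 over 13 genes and 0 past 1.5-fold, beside 25.1% of the expressed genes. Eef1a1, which delivers aminoacyl-tRNA to the ribosome, had an FPKM of 4359 (488 to 8231) in PID+ cells and 5588 (613 to 10563) in PID- cells. Other mRNAs with an oligopyrimidine tract had a median of -0.03 over 18 genes. Among them only Vim, which encodes the mesenchymal filament protein vimentin, passed 1.5-fold, beside 25.1% of the expressed genes. Vim had 19.1 (0.124 to 38.1) against 997 (213 to 1782), a difference of -5.63 with intervals apart. Mitochondrial ribosomal proteins had a median of 0.12 over 76 genes, and of the 73 that were expressed 4 were past 1.5-fold higher and 2 lower, beside 12.6% and 12.4%. They ranged from Mrpl50 at -0.93 to Mrps25 and Mrpl46 at 0.68.

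A list for mTOR complex 1 and the S6 kinases also took in the Rps6ka kinases beside Rps6kb1 and Rps6kb2. Its median was -0.05 over 25 genes, with 1 at least 1.5-fold higher and 4 lower. Of its 14 expressed genes 0 were that much higher and 2 lower, beside 12.6% and 12.4% of all expressed genes. These values were not recomputed without the Rps6ka kinases. Deptor, an inhibitory subunit of mTOR complexes, had an FPKM of 1.03 (0 to 2.23) in PID+ cells and 10 (3.9 to 16.2) in PID- cells, with intervals apart. Eif4ebp1, a repressor of cap-dependent translation that mTOR inactivates, had 82.6 (31.9 to 133) and 227 (103 to 352), a difference of -1.45 with overlapping intervals. Both directions included an Rps6ka kinase. Rps6ka6 was the gene past 1.5-fold higher, at an FPKM under 1 in both conditions, and Rps6ka3 on the X chromosome, at -0.62, was among those lower. Among genes of the Mdm2 and p53 response to disturbed ribosome assembly the median was 0.18 over 10 genes, with Mdm2 at 161 (41.7 to 280) against 75.5 (19.8 to 131), a difference of 1.08, Cdkn1a at 0.67 and Cdkn2a at -0.94. Of 12 housekeeping references 5 passed 1.5-fold, beside 25.1% of the expressed genes. Among them were Hprt at -0.86 and Pgk1 at -0.76, both on the X chromosome, Gapdh on chromosome 6 at 0.62, and Polr2a at 0.76.

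Among the cell type markers, most of the epithelial list and most of the fibroblast and stroma list differed by at least 1.5-fold between the conditions. Of 10 epithelial markers 7 were expressed, and of these 6 passed 1.5-fold upward in PID+ cells and 0 downward, beside 12.6% and 12.4% of the expressed genes. Another 2, at lower levels, passed it downward, and the 10 markers' summed FPKM was 9085 in PID+ cells and 4968 in PID- cells. Krt18, the most abundant in PID+ cells, had an FPKM of 2843 (880 to 4807) and 1199 (486 to 1913). Epcam had 401 (178 to 623) against 124 (56.0 to 193). The intestinal marker Cdx2 went the other way, with 0.542 (0 to 1.64) against 8.04 (1.07 to 15), and Vil1 was under 1 in both conditions. Of 9 fibroblast and stroma markers 0 averaged 10 FPKM, 6 passed 1.5-fold downward in PID+ cells and 0 upward, beside 1942 of 21959 genes downward, and summed FPKM was 7.39 and 43.9. Col1a2, the most abundant of them in PID- cells, had 0.0654 (0 to 0.242) against 11.9 (4.07 to 19.7), and Dcn and Thy1 were listed at 0 in PID+ cells. Blood and immune markers summed to 0.391 and 0.351 over 10 genes, endothelial markers to 3.95 and 1.41 over 5 genes, mostly Kdr at 3.33 and 1.01, and mast cell markers to 0.637 and 0.567 over 4 genes, with Cd3e, Hbb-bs, Cpa3 and Tpsb2 listed at 0 in both conditions. The part of these marker differences in the levels of ribosomal protein mRNAs was not tested, and in bulk RNA fewer cells of a type and less RNA per cell cannot be told apart.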

How the data were processed

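RNA-seq of 6 samples, 3 per condition, was used as 1 table of pooled values. The authors removed adapters with CutAdapt 1.8.1, aligned reads with TopHat 2.0.8 to GRCm38.p3 guided by a protein coding annotation, combined the reads of a condition and wrote FPKM with intervals in CuffDiff; these deposited FPKM values were used unchanged. Rows named treated were taken as PID+ and rows named untreated as PID-. In 26 rows the upper bound lay below the FPKM. Gene identifiers were matched to symbols for 21734 of 21966 genes, and positions came from GENCODE M21 on the same build.

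Differences used a pseudocount of 1, and calls were ratios of at least 1.5 or 3 after it was added. No test was run, since there is 1 value per gene and condition. Chromosome medians used non-member genes averaging 5 FPKM or more. The reads behind a value were estimated, over a search range set after looking at the values, from genes with 1 transcript, where 92.4% of low PID+ values and 91.4% of low PID- values lay within 0.1 of a whole number of reads; the longest transcript was used for each member. Genes named were, among members, the 8 highest and 8 lowest in level, the 8 largest differences in each direction at a mean FPKM of 10 or more, all past 1.5-fold or with intervals apart, all on chromosomes 6, 16 and X, the paralog pairs, the stalk and 7 further genes of known role, and in other lists those with the largest difference in each direction and those past 1.5-fold, up to 4. The members and lists were chosen with earlier results of these data known. Calculations used pandas 2.3.3 and numpy 2.4.6 in Python 3.11.15, with scipy 1.17.1 for rank correlation and matplotlib 3.10.9 for figures, and were tested on simulated data. Alternatives were other pseudocounts, scalings and corrections.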

Additional observations from a re-analysis of the deposited data

How the results depend on the processing

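The median difference, 0.00, stayed within 0.1 under all alternatives but Gapdh set equal, where it was -0.55. Otherwise it ran from -0.09, with the fitted trend removed, to 0.08, over the 12 main genes with little shared sequence. With a pseudocount of 0.1, 2 members were higher, the second being Rpl9-ps1, near 0 FPKM. The count of 7 members past 1.5-fold was 48 with Gapdh set equal, all lower, 11 with the FPKM of non-members set equal, 3 with chromosome medians subtracted, 4 with medians within 5 Mb subtracted (2 higher, Rplp0 and Rps27l) and 2 of 12 main genes with little shared sequence; the last 2 alternatives, those of the chromosome correlation, and some repeats for the 3-fold count and the subunits, were chosen after seeing the data. The split of 1 higher and 6 lower became 0 and 10 with the trend on GC content, length and abundance removed. No member reached 3-fold under any alternative. The large less the small subunit median, near 0, was 0.10 with Gapdh set equal, 0.12 with the trend removed and -0.31 over the 12 genes with little shared sequence, where few genes remain. The share held by members differed by -1.17 percentage points, and by -0.42 without other genes over 1000 FPKM. The correlation with chromosome medians, 0.79, was 0.92 over those 12 genes. Why these values moved was not tested.

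No paired analysis was possible because the values are pooled over samples, and leaving out each replicate could not be run for the same reason. The intervals cover the quantifier's own error model, and no spread between animals can be had. Counting error was near 0.84% for the main gene with the fewest estimated reads, a figure that rests on longest transcripts; copies rest on fewer, such as 1401 for Rpl13-ps3 and 2.03 for Rpl9-ps1 in PID+ cells. Sequence shared with copies also limits single genes.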
